A study of Homo sapiens with 30 samples.

Results

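The MYC, MAX and MXD network was followed as 10 genes, MYCN, MYC, MAX, MXD1, MXD3, MXD4, MXI1, MNT, MLX and MGA, chosen by symbol from a table of 26228 genes. Levels are FPKM, fragments per length of transcript and per number of mapped fragments, so that genes of different length can be set side by side. Averaged over the 30 libraries all 10 reached 1 FPKM, the level required of the 11575 genes that were tested. The RNA came from SH-EP, an established neuroblastoma (NB) cell line of mesenchymal type that has no MYCN amplification, and from 4 stable retroviral derivatives of it. These expressed exogenous MYCN as the WT protein, as T58A, as S62A or as T58A S62A (the double mutant), from a promoter other than MYCN's own. Every line was grown in DMEM with 10% FBS and treated for 6 h with either DMSO, the solvent, or 1 μM CYC065, an inhibitor of the transcriptional kinase CDK9 and of CDK2. There were 3 libraries in each of the 10 groups. The sources do not say whether the derivatives were clones or pools, or whether the 3 libraries of a group came from separate cultures, so p-values measure the spread between libraries, which may be technical.

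MYC and MYCN are basic helix-loop-helix leucine zipper proteins that act as dimers with MAX at E-box DNA, mostly to activate genes of growth and metabolism. MXD1, MXI1, MXD3 and MXD4 also dimerise with MAX and recruit SIN3 and histone deacetylases to the same sites, where they repress. MNT is a broadly expressed repressor of the same kind, and MGA is a very large MAX partner that works within a variant polycomb complex. MLX is a MAX-like protein that joins MXD proteins and MNT to a sugar-sensing branch through MLXIP (MondoA).

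The altered residues are shown in the reference MYCN coding sequence, because these codons define the 4 exogenous proteins. The stretch covers codons 54 to 66 in a coding exon on the plus strand of GRCh37, chr2:16082346-16082384, with capitals marking the codons for T58 and S62, phosphorylation sites through which the protein's turnover is controlled:
MYCN codons 54 to 66: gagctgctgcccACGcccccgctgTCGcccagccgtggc
The T58 codon lies at positions 16082358 to 16082360 and the S62 codon at 16082370 to 16082372 of chromosome 2. The sequence is that of the reference, not of the vectors. How much of the MYCN transcript the vectors carry is not given in the sources used here, so the MYCN FPKM, which divides by an annotated length, may be offset by a constant factor between MYCN and the other genes.

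The members lie on several chromosomes of GRCh37, among them MYCN at chr2:16080672-16087129, MXD1 at chr2:70124820-70170077, MXI1 at chr10:111967363-112047123, MAX at chr14:65472892-65569413, MGA at chr15:41913332-42065279 and MNT at chr17:2287367-2304398. The promoters of 9 of the 10 members were searched, that of MYC not being analysed here, for the E-box CACGTG, which reads the same on both strands. RefSeq windows on GRCh38.p14, from 250 bases before to 50 bases after a gene's start, held the motif in 3 of 14 windows of these members, in 7.26% of 35116 windows in all and in 9.57% of the 12631 windows of tested genes. The matches, shown with the E-box in capitals and each on its gene's strand, were in MXD4 at chr4:2262330-2262359 (minus), in MNT at chr17:2401236-2401265 (minus) and in MLX at chr17:42567038-42567067 (plus):
MXD4: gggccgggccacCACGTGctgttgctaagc
MNT: ccctgcccgggcCACGTGtgcgcgcgccgg
MLX: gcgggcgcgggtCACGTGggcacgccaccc
The motif began 238 bases before the start of MXD4, 193 before that of MNT and 50 before that of MLX. A match is a description of letters and not a measured binding site.

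Of the libraries as a whole, 8 of 8 mesenchymal NB markers had a mean of at least 1 FPKM and VIM (vimentin) reached 1305 to 4599 FPKM, whereas 3 of 10 adrenergic markers did and PHOX2A was listed at 0 throughout. The mesenchymal markers summed to 3022 to 3147 FPKM in SH-EP and 1576 to 2263 FPKM in the MYCN lines with DMSO. VIM alone made up most of that sum, so it does not show how the list moved as a whole. The adrenergic markers summed to 105 to 109 FPKM in SH-EP with DMSO. The S62A line, at 73.0 to 78.1 FPKM, and the WT line, at 86.3 to 100, lay below that with DMSO. T58A, at 104 to 117, and the double mutant, at 92.9 to 114, overlapped with SH-EP. HAND2, at 23.1 to 89.3 FPKM over all libraries, weighs heavily in this sum, so the sum does not show how the list moved as a whole. None of 3 endothelial and 4 haematopoietic markers had such a mean, and the highest value was 0.327 FPKM for PECAM1, while of 4 epithelial markers the keratins KRT8 and KRT18 did, at 195 FPKM or more, and CDH1 and EPCAM did not. Of the 4 Schwann markers S100B alone had such a mean, and the list's summed level was 5.73 to 13.8 FPKM in SH-EP and 0.61 to 3.49 FPKM in the MYCN lines. Relative sequencing depth, read from the steps between low values, was 0.291 to 0.543 with CYC065 and 0.467 to 1 with DMSO. Of the 6 SH-EP libraries 2 share an index with a T58A library and 4 with a T58A S62A library, so that none was read in the same pool as its partner, and none shares one with WT or S62A. The pools themselves are not given in the sources used here. Libraries of the same group correlated at 0.975 to 0.987 across genes. The part that the marker lists, depth and pool play in the results below was not tested.

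MYCN itself separated the parental line from its derivatives. It was listed at 0 in all 6 SH-EP libraries. In DMSO it was at 11.7, 13.3 and 13.7 FPKM in the WT line, at 7.27, 8.44 and 9.84 in the T58A line, at 5.08, 5.51 and 6.59 in the S62A line and at 9.06, 15.7 and 15.7 in the T58A S62A line. The S62A, T58A and WT libraries did not overlap and rose in that order, while the T58A S62A libraries overlapped with those of the WT line. Against the WT line, MYCN fell by 0.60 ± 0.17 (log2, SE) in the T58A line (limma adjusted p = 0.0102) and by 1.16 ± 0.17 in the S62A line (adjusted p = 1.46e-05), which are 1.51-fold and 2.25-fold lower means. The T58A S62A line differed by 0.02 ± 0.17 (adjusted p = 0.957). Without library 3 of T58A the T58A difference was -0.49, with an adjusted p of 0.0644. Comparisons between lines use FPKM as deposited. Scaled to the ERCC spike-ins, which were added by cell number, the S62A line was still lower than WT by 1.86, whereas the T58A difference was -0.30 with an adjusted p of 0.381.

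MYC, the founding member of the family, took the opposite course. In DMSO it was at 4.64, 4.68 and 5.51 FPKM in SH-EP, at 0.992, 0.995 and 1.13 in the WT line and at 1.01, 1.85 and 1.93 in the S62A line. The lowest values were in the T58A line, at 0.414, 0.457 and 0.468, and in the T58A S62A line, at 0.377, 0.494 and 0.635. No MYCN line reached the lowest SH-EP library, and the T58A and T58A S62A libraries lay below all those of the WT and S62A lines. Mean MYC was 4.76-fold lower than in SH-EP in the WT line, 11.1-fold lower in T58A, 3.10-fold lower in S62A and 9.85-fold lower in the double mutant. The log2 changes were -2.15, -3.20, -1.62 and -3.08, each with an SE of 0.17, and the adjusted p-values ran from 1.51e-13 to 2.65e-08. In the WT line 1.46% of the tested genes had a lower value than MYC and in the T58A line 0.613%. With spike-in scaling MYC was lower still, at -4.25 to -3.42.

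The mutant lines also differed from the WT line in MYC. It was lower by 1.06 ± 0.17 log2 units in T58A (adjusted p = 8.16e-05) and by 0.94 ± 0.17 in the double mutant (adjusted p = 0.000259). In S62A it was higher by 0.53 ± 0.17 (adjusted p = 0.0279). That last call did not survive spike-in scaling, under which the difference was -0.13, nor a fit of the compared groups alone (adjusted p = 0.21), and it was lost without library 1 or 3 of either group, at 0.37 to 0.50. The lower MYC of T58A S62A missed the threshold with spike-in scaling, at -0.60 with an adjusted p of 0.0516.

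**Figure D1:**
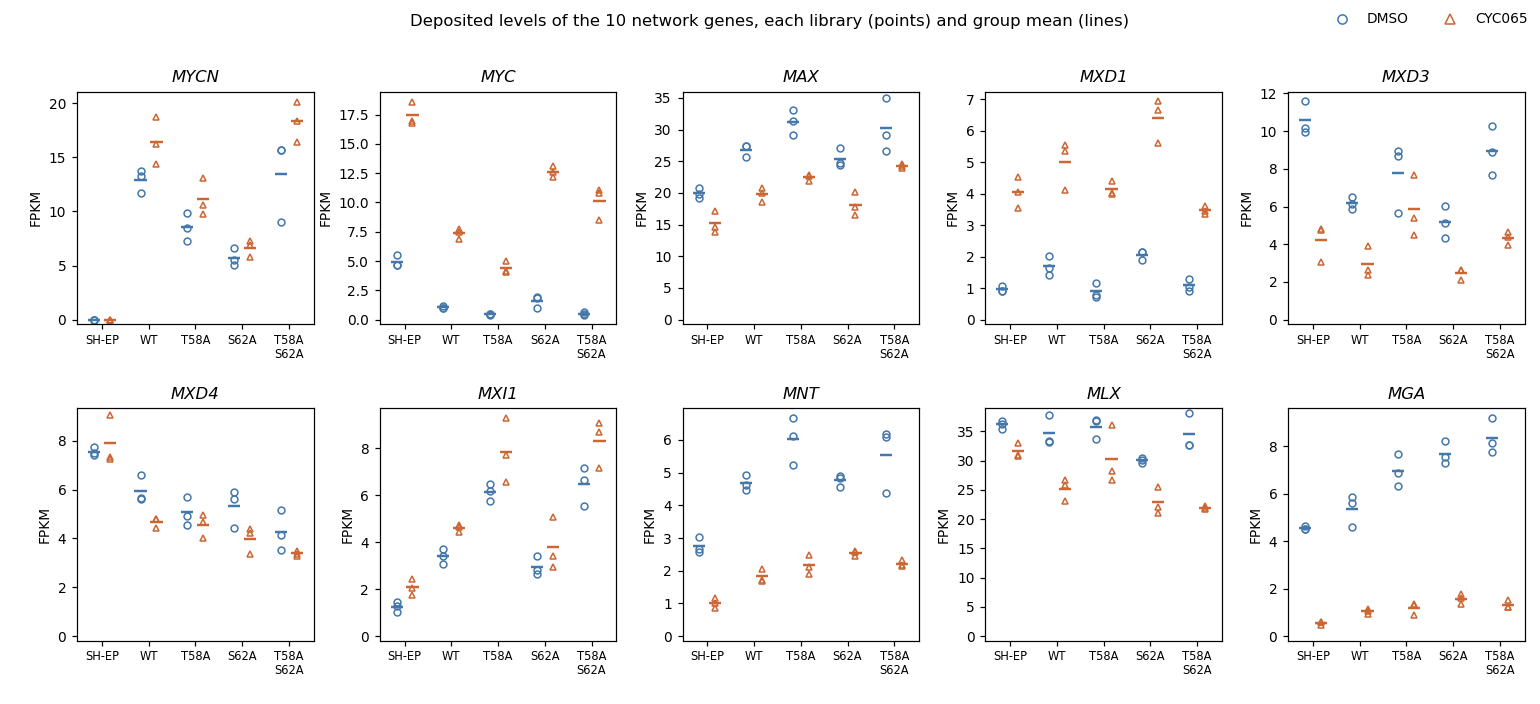
Deposited FPKM (vertical axes, linear) of the 10 genes in the 5 lines, with DMSO as circles, CYC065 as triangles, 1 point per library and a line at each group mean of 3. MYCN is at 0 in SH-EP, MYC is highest in SH-EP within each treatment, and MGA is at most 1.76 FPKM in the CYC065 libraries and at least 4.51 FPKM in the DMSO libraries.

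MAX, the shared partner, and MLX, its relative, were the most abundant members, at 19.2 to 34.9 and 29.6 to 38.1 FPKM in DMSO. MAX was at 19.2, 19.8 and 20.8 FPKM in SH-EP and no library of a MYCN line fell below 24.4. Its deposited level was higher by 0.43 in WT, 0.64 in T58A, 0.35 in the S62A line and 0.59 in the double mutant (log2, each SE 0.09), with adjusted p-values of 1.02e-06 to 0.00162. MLX changed by -0.27 ± 0.09 in S62A (adjusted p = 0.0125) and by -0.07 to -0.02 in the other lines, where it did not pass. With spike-in scaling MAX turned to the other side, at -0.84, -0.32, -1.62 and -0.25, of which the WT and S62A values passed, and MLX was lower in all 4 lines by 0.91 to 2.23.

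MXI1, a MAX-dimerising repressor, showed the highest rise among the members other than MYCN. It was at 1.04, 1.26 and 1.44 FPKM in SH-EP and, in DMSO, at 3.06, 3.40 and 3.72 in WT, 5.76, 6.19 and 6.49 in T58A, 2.64, 2.81 and 3.40 in S62A and 5.55, 6.64 and 7.17 in the double mutant. The 2 lines with T58A lay above the other 2 MYCN lines, and every MYCN line lay above SH-EP. The log2 changes against SH-EP were 1.38, 2.22, 1.18 and 2.29, each with an SE of 0.17 and adjusted p-values of 4.60e-11 to 2.55e-06. In the T58A line 130 of the 11575 tested genes had a higher value than MXI1. Against WT, MXI1 was higher by 0.84 ± 0.17 in T58A (adjusted p = 0.000762) and by 0.90 ± 0.17 in the double mutant (adjusted p = 0.000321), and both calls held with spike-in scaling, at 1.15 and 1.33. Against SH-EP, spike-in scaling left MXI1 higher in T58A (1.33) and T58A S62A (1.51) but not in WT (0.18, adjusted p = 0.465), and it was lower in S62A (-0.70, adjusted p = 0.00628).

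MNT and MGA, the broadly acting repressors, also had higher deposited levels. MNT was at 2.57, 2.65 and 3.03 FPKM in SH-EP and at 4.37 to 6.69 in the MYCN lines, with log2 changes of 0.75, 1.10, 0.78 and 0.97 (SE 0.13) and adjusted p-values of 2.09e-07 to 4.53e-05. The ranges did not overlap. MGA was at 4.51, 4.52 and 4.66 FPKM in SH-EP, at 4.61, 5.61 and 5.87 in WT, and at 6.33 to 9.18 in the 3 mutant lines. It rose by 0.59 in T58A, 0.74 in the S62A line and 0.86 in the double mutant (SE 0.15, adjusted p 2.33e-05 to 0.00135), and the WT difference of 0.22 did not pass (adjusted p = 0.212). Against WT, MGA was higher in S62A (0.52 ± 0.15, adjusted p = 0.0109) and in the double mutant (0.64 ± 0.15, adjusted p = 0.0023), of which the second held with spike-in scaling, at 1.06. Without library 2 of WT the S62A difference was 0.42 (adjusted p = 0.0797) and without library 2 of S62A it was 0.47 (adjusted p = 0.0514). Against SH-EP, spike-in scaling turned MNT lower in WT and S62A, at -0.49 and -1.15, and MGA lower in the same lines, at -1.03 and -1.21. In T58A and T58A S62A neither gene then passed.

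The MXD genes did not move as a group. MXD4 was at 7.40, 7.5 and 7.74 FPKM in SH-EP and below that in every library of a MYCN line, at 3.52 to 6.60, with log2 changes of -0.34, -0.57, -0.51 and -0.82 (SE 0.13). The WT call (adjusted p = 0.0338) was lost without any 1 of 5 libraries, library 1, 2 or 3 of SH-EP or library 1 or 3 of WT, at -0.35 to -0.30. MXD3 was at 9.96, 10.2 and 11.6 FPKM in SH-EP and fell in WT by 0.77 ± 0.21 and in S62A by 1.03 ± 0.21 (adjusted p = 0.00339 and 0.000206), while the T58A and T58A S62A values were -0.47 and -0.25 (adjusted p = 0.0629 and 0.338). MXD1, the least abundant repressor, was at 0.902, 0.923 and 1.07 FPKM in SH-EP, at 1.43, 1.64 and 2.01 in WT and at 1.90, 2.14 and 2.14 in S62A. It was higher in those 2 lines by 0.74 ± 0.16 and 1.02 ± 0.16 (adjusted p = 0.000421 and 1.02e-05), and the T58A and T58A S62A libraries, at 0.733 to 1.31 FPKM, overlapped with SH-EP. Against WT, MXD1 was therefore lower in T58A (-0.86 ± 0.16, adjusted p = 0.00038) and in the double mutant (-0.60 ± 0.16, adjusted p = 0.00838). Both of these calls were lost with spike-in scaling and in a fit of the compared groups alone, and the second also without library 1 of WT or library 3 of T58A S62A, at -0.47 and -0.49. With spike-in scaling MXD1, MXD3 and MXD4 were lower than in SH-EP in all 4 lines. MXD4 was also lower in the double mutant than in WT (-0.48 ± 0.13, adjusted p = 0.00921), a call lost with spike-in scaling, in a fit of those groups alone (adjusted p = 0.137) and without library 2 of either group, at -0.41 and -0.35.

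**Figure D2:**
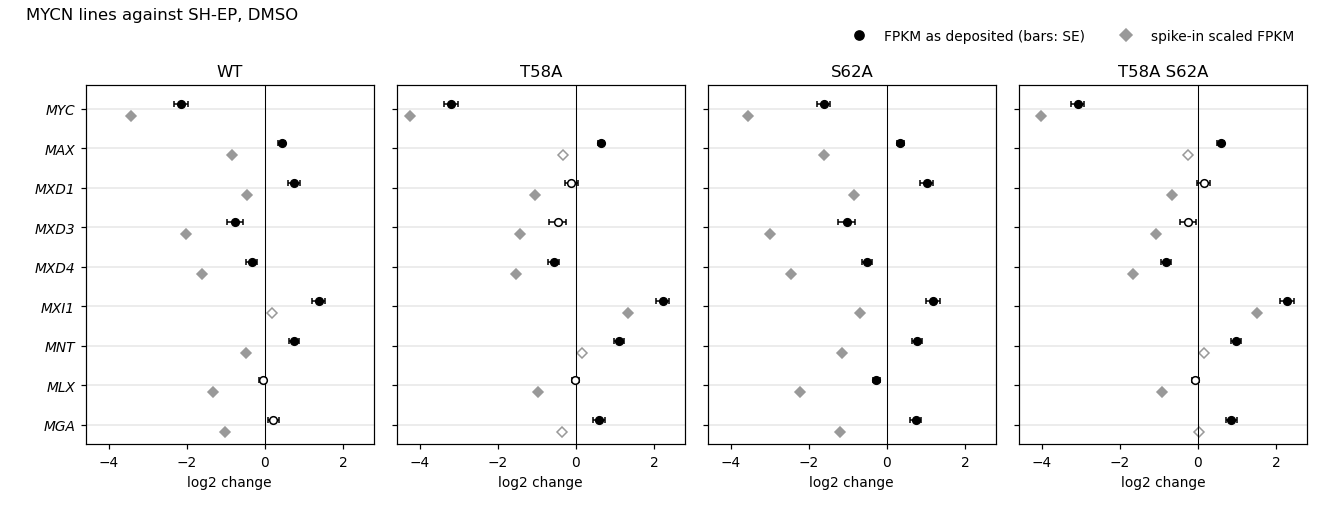
Log2 change of 9 members in the 4 MYCN lines, each set against SH-EP, with DMSO (horizontal axis, the same in all panels), from deposited FPKM (black circles, bars of 1 SE) and from spike-in scaled FPKM (grey diamonds), filled where the adjusted p was under 0.05. MYC lies left of 0 on both scales in all 4 lines, and MAX lies right of 0 on the deposited scale and left of it on the other.

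Counted over the 9 members other than MYCN, 7 passed in WT (4 higher, 3 lower), 6 in T58A (4 and 2), 9 in S62A (5 and 4) and 6 in the double mutant (4 and 2). The share of all tested genes that passed was 54.2, 54.2, 54.3 and 55.3%, with 31.6, 30.9, 31 and 31.2% higher and 22.6, 23.3, 23.4 and 24.1% lower, so most genes differed between these lines. The median change of all tested genes was 0.05 to 0.07 on the deposited scale but -1.18, -0.89, -1.88 and -0.76 after spike-in scaling. Of the genes called, 58.3, 56.9, 57 and 56.4% were higher on the deposited scale against 1.10, 2.33, 0.398 and 3.13% after spike-in scaling. Fewer cells than counted and less RNA per cell cannot be told apart in such bulk samples. The 4 comparisons share the SH-EP libraries. Among mutants against WT, 4 of 10 members passed in T58A, 3 in the S62A line and 5 in the double mutant, with 23.6, 24.1 and 23.7% of all genes passing, 10.7, 10.1 and 9.43% on the higher and 13, 14 and 14.2% on the lower side. Of the genes called in these comparisons 45.0, 41.8 and 39.9% were higher as deposited, against 94.9, 0.242 and 95.8% with spike-in scaling, under which the median gene stood at 0.28, -0.71 and 0.40. MYC, MXD1 and MXI1 were the members that differed from WT in both lines with the T58A change.

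The effect of CYC065 was tested on FPKM scaled to the spike-ins, since inhibition of CDK9 can lower total mRNA. The median tested gene was lower by 1.08 log2 units in SH-EP, 1.58 in WT, 1.09 in T58A, 1.35 in the S62A line and 0.98 in the double mutant, and 77.2, 94.5, 85.8, 91.2 and 78.3% of tested genes passed. On the deposited scale these medians were 0.06 to 0.15. Calls higher than DMSO made up 0.89, 0.769, 1.24, 0.959 and 1.84% of the tested genes and lower calls 76.3, 93.7, 84.5, 90.2 and 76.4%. Of the called genes, 0.814 to 2.35% were higher with spike-in scaling and 52.0 to 56.0% without it.

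MYC was among the few genes that rose on the spike-in scale in every line. Its scaled level went from 14.3, 15.5 and 17.9 with DMSO to 19.9, 24.1 and 26.4 with CYC065 in SH-EP, from 1.12, 1.27 and 1.86 to 2.79, 2.88 and 3.48 in WT and from 0.561, 0.794 and 0.887 to 2.93, 3.02 and 3.50 in T58A. In S62A it went from 0.944, 1.39 and 1.51 to 3.27, 3.59 and 4.12, and in the double mutant from 0.761, 0.893 and 1.00 to 5.92, 9.64 and 10.7. The CYC065 libraries lay above the DMSO libraries of the same line in each case. The log2 changes were 0.55 in SH-EP, 1.08 in WT, 1.96 in T58A, 1.46 in the S62A line and 3.13 in the double mutant, each ± 0.22, with adjusted p-values of 0.0276, 6.58e-05, 1.56e-08, 1.34e-06 and 4.60e-12. The SH-EP call was lost without library 1 or 2 of either group, at 0.46 to 0.54. As deposited, MYC reached 16.7, 17 and 18.6 FPKM in SH-EP, and its changes were 1.80, 2.72, 3.04, 2.96 and 4.10. Group means were 3.53-fold to 20.2-fold those with DMSO on that scale and 1.47-fold to 9.91-fold on the spike-in scale.

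The rise of MYC was not the same size in all lines. Against the response of SH-EP it was greater by 1.40 ± 0.32 in T58A (adjusted p = 0.012) and by 2.58 ± 0.32 in the double mutant (adjusted p = 6.87e-06), and against that of WT it was greater by 2.05 ± 0.32 in the double mutant (adjusted p = 0.00307). The differences from SH-EP of 0.53 in WT and 0.91 in S62A had adjusted p-values of 0.203 and 0.109, and both passed on the deposited scale, at 0.92 and 1.16. The T58A difference missed the threshold with a pseudocount of 1 (0.72, adjusted p = 0.0885) and in a fit of those groups alone (adjusted p = 0.0667). The difference between T58A S62A and WT missed it with the spike-ins of at least 50 FPKM (1.94, adjusted p = 0.0766) and in a fit of those groups alone (adjusted p = 0.124). On the spike-in scale used for these tests, mean MYC started at 0.747 in T58A and 0.885 in T58A S62A (0.446 and 0.502 FPKM as deposited). The added 0.1 FPKM has most weight there and understates the change.

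MYCN, which in these lines comes from the vector, fell on the spike-in scale and stayed level or rose on the deposited one. As deposited it went to 14.4, 16.2 and 18.7 FPKM with CYC065 in WT, to 9.73, 10.6 and 13.1 in T58A, to 5.79, 6.89 and 7.23 in S62A and to 16.5, 18.4 and 20.1 in the double mutant, and the order of the lines was kept. The deposited changes were 0.34, 0.39, 0.21 and 0.48, of which those in T58A and T58A S62A passed (adjusted p = 0.0428 and 0.0133). On the spike-in scale MYCN fell by 1.33 in WT, 0.80 in T58A, 1.25 in the S62A line and 0.60 in the double mutant (SE 0.22, adjusted p 4.20e-06 to 0.0179). Without CYC065 library 1 or DMSO library 1 of T58A S62A that last call was lost, at -0.53 and -0.39, and with the spike-ins of at least 50 FPKM the T58A call was too (-0.64, adjusted p = 0.0677). In SH-EP MYCN stayed at 0.

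The ratio of MYCN to MYC within a library needs no scaling between libraries. It was 11.7, 11.8 and 13.8 in WT with DMSO and 2.08, 2.09 and 2.51 with CYC065. In T58A it went from 17.6, 18.5 and 21.0 to 2.34, 2.62 and 2.63 and in the double mutant from 18.4, 24.8 and 41.5 to 1.49, 1.70 and 2.36. In S62A it went from 2.74, 2.85 and 6.53 to 0.459, 0.527 and 0.596, so that MYC FPKM exceeded MYCN FPKM there with CYC065 and in no other MYCN line. The log2 ratio fell by 2.37, 2.65, 2.74 and 3.62 in WT, T58A, S62A and the double mutant and by 2.85 on average. A two-sided exact permutation test of treatment within lines gave p = 1.25e-05, the smallest that its 160000 arrangements allow. Within a single line, 3 libraries against 3 cannot give an exact p under 0.1.

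**Figure D3:**
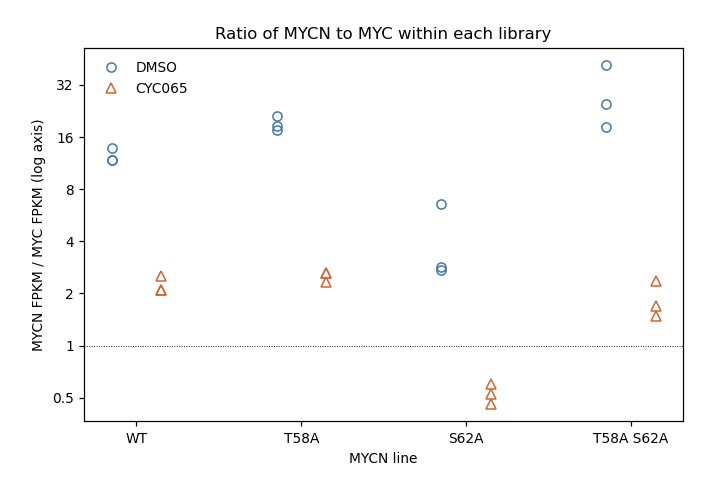
Ratio of MYCN to MYC FPKM (vertical axis, log scale) in each library of the 4 MYCN lines, with DMSO as circles and CYC065 as triangles. The CYC065 libraries lie below the DMSO libraries of the same line in all 4 lines, and in S62A they lie below 1, at 0.459 to 0.596.

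MXD1 was the other member that rose. On the spike-in scale it went from 2.99, 3.0 and 3.31 to 4.15, 5.83 and 6.46 in SH-EP and from 1.42, 1.43 and 1.51 to 2.90, 2.92 and 3.09 in T58A, and the treatments did not overlap. The rises were 0.78 ± 0.21 in SH-EP (adjusted p = 0.0015), 0.99 ± 0.21 in T58A (adjusted p = 0.000128) and 0.58 ± 0.21 in the double mutant (adjusted p = 0.0144), while WT and S62A were at -0.12 and 0.12 (adjusted p = 0.575 and 0.583). The T58A S62A call was lost without CYC065 library 2 or 3 or DMSO library 3, at 0.38 to 0.52, with the spike-ins of at least 50 FPKM (0.39) and in a fit of the 2 groups alone. The response of WT was smaller than that of SH-EP by 0.90 ± 0.30 (adjusted p = 0.043), a call that did not hold on the deposited scale, where the difference was -0.45. On the spike-in scale the median of all tested genes in that comparison was itself -0.51. As deposited, MXD1 rose by 1.51 to 2.11 in all 5 lines.

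MGA fell the most. Its deposited level went from 4.51, 4.52 and 4.66 FPKM to 0.459, 0.578 and 0.582 in SH-EP, from 4.61, 5.61 and 5.87 to 0.922, 1.06 and 1.14 in WT and from 6.33, 6.86 and 7.68 to 0.876, 1.30 and 1.37 in T58A. In S62A it went from 7.30, 7.56 and 8.21 to 1.34, 1.62 and 1.76 and in the double mutant from 7.78, 8.12 and 9.18 to 1.22, 1.24 and 1.53. No CYC065 library reached the level of any DMSO library. The log2 changes were -4.17, -3.77, -3.63, -3.53 and -3.63 on the spike-in scale (SE 0.24, adjusted p 3.89e-14 to 1.37e-12) and -2.87 to -2.22 as deposited. MNT was also lower in all 5 lines, at -2.64, -2.90, -2.60, -2.26 and -2.34 on the spike-in scale (SE 0.23) and -1.43 to -0.88 as deposited. Its level with CYC065 was 0.845 to 1.15 FPKM in SH-EP and 1.70 to 2.60 in the MYCN lines, with no overlap with DMSO in the same line. MXD3 was lower in all 5 lines too, in S62A by more than MNT, at -2.60, -2.68, -1.59, -2.42 and -2.09 on the spike-in scale (SE 0.27), and its deposited change passed in all lines but T58A (-0.41, adjusted p = 0.0864).

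MAX, MLX, MXD4 and MXI1 fell on the spike-in scale by amounts nearer to the median gene. MAX was lower by 1.39 to 2.12, MLX by 1.45 to 2.15, MXD4 by 1.20 to 1.99 and MXI1 by 0.52 to 1.20. As deposited, MAX was lower by 0.30 to 0.49 and MLX by 0.20 to 0.65 in all 5 lines, and MXD4 passed in WT, S62A and the double mutant, at -0.40 to -0.31. MXI1 lay on the other side as deposited, higher by 0.69 in SH-EP and 0.43 in WT (adjusted p = 0.000826 and 0.0257), with 0.32 to 0.36 in the 3 mutant lines (adjusted p = 0.0614 to 0.0895). The fall of MXI1 in SH-EP (-0.52, adjusted p = 0.0457) was lost without any 1 of 5 libraries, DMSO library 1 or 3 or CYC065 library 1, 2 or 3, at -0.56 to -0.40.

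**Figure D4:**
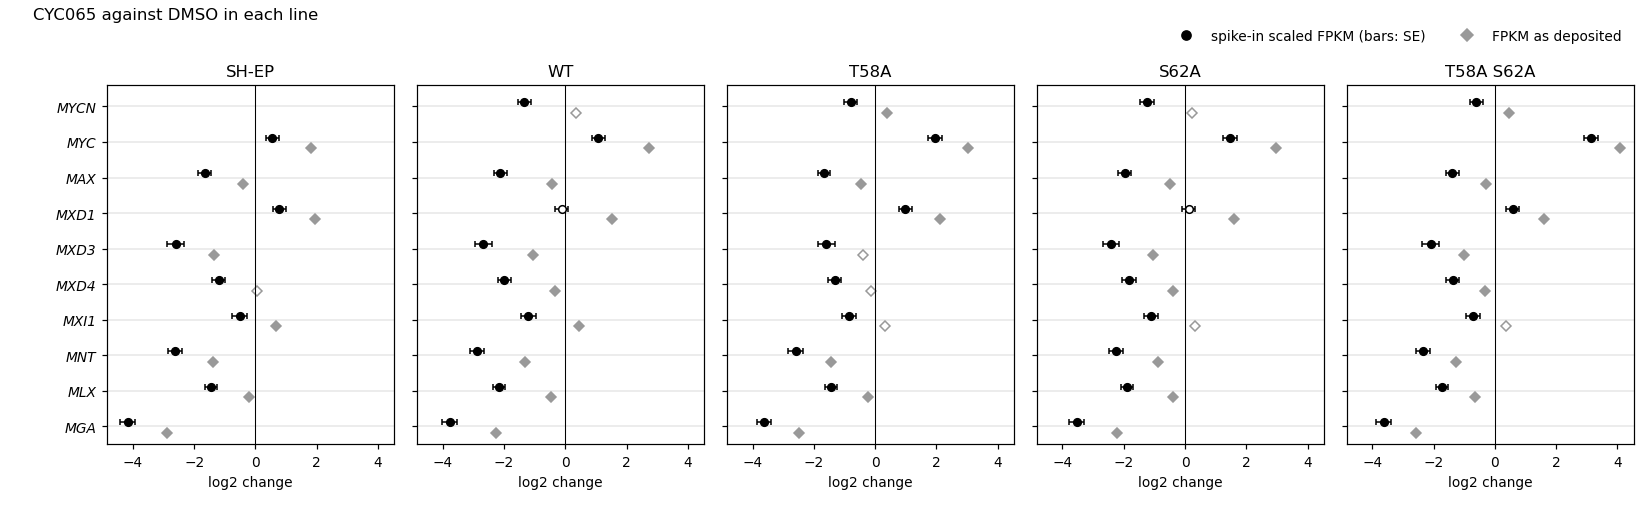
Log2 change with CYC065 against DMSO in each line (horizontal axis, the same in all panels), from spike-in scaled FPKM (black circles, bars of 1 SE) and from deposited FPKM (grey diamonds), filled where the adjusted p was under 0.05; MYCN is left out for SH-EP, where it is at 0. MYC lies right of 0 and MGA farthest left in all 5 panels on both scales, while MYCN and MXI1 change side with the scale.

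In all, 9 of 9 members passed in SH-EP (2 higher, 7 lower), 9 of 10 in WT (1 and 8), 10 of 10 in T58A (2 and 8), 9 of 10 in S62A (1 and 8) and 10 of 10 in the double mutant (2 and 8). Set beside the 77.2 to 94.5% of all genes that passed, these counts are near the background. What set members apart was direction for MYC and size for MGA, in all 5 lines. MXD1 was called higher in SH-EP, T58A and, less firmly, the double mutant, but it did not pass in WT or S62A. For differences between lines in the response to CYC065, limma called 1 of 9 members in WT, 1 in T58A, 0 in the S62A line and 1 in the double mutant against SH-EP, beside 16, 2.66, 4.83 and 5.46% of all genes (1.82, 2.35, 3.11 and 5.27% higher and 14.1, 0.311, 1.72 and 0.19% lower), and 2 of the S62A values had an unadjusted p under 0.05. Against WT it called 0 of 10 in T58A, 0 in the S62A line and 1 in the double mutant, beside 0.0432, 0 and 16.1% of all genes, with 5 and 0 unadjusted p-values under 0.05 where none was called. Of all the genes called, 11.4, 88.3, 64.4 and 96.5% were on the higher side against SH-EP and, on the deposited scale, 36.5, 41.4, 44.3 and 41.8%. Against WT 100% in T58A and 99.9% in the double mutant were higher, and 51.5 and 54.7% on the deposited scale.

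The RNA make-up of the MAX-binding partners changed accordingly. It is given here as shares of the summed FPKM of MYC, MYCN, MXD1, MXD3, MXD4, MXI1, MNT and MGA within each library and with no test. MYC and MYCN together made up 14, 14.6 and 16.9% in SH-EP with DMSO and 45.7, 46.7 and 48.1% with CYC065. With DMSO the mean share was 33.8% ± 2.15 (SD, n = 3) in WT, 21.4% ± 2.04 in T58A, 20.8% ± 0.641 in the S62A line and 28.5% ± 6.38 in the double mutant, and with CYC065 it was 54.1% ± 2.81, 37.7% ± 5.37, 48.1% ± 1.21 and 55.3% ± 0.624. The CYC065 libraries lay above the DMSO libraries in each line. MXD3 was the largest repressor share in SH-EP with DMSO, at 32.5%, and MXD4 with CYC065, at 21.3%. MGA went from 13 to 21.8% of the sum with DMSO to 1.45 to 3.95% with CYC065. The partners' summed FPKM was 1.35 to 1.64 times that of MAX with DMSO and 1.84 to 2.47 times with CYC065. The shares that hold MYCN depend on the transcript length used for it. All these shares and ratios are of RNA and do not give the amounts of protein. The paper reports that exogenous MYCN protein did not decrease with CYC065 in the MYCN lines.

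**Figure D5:**
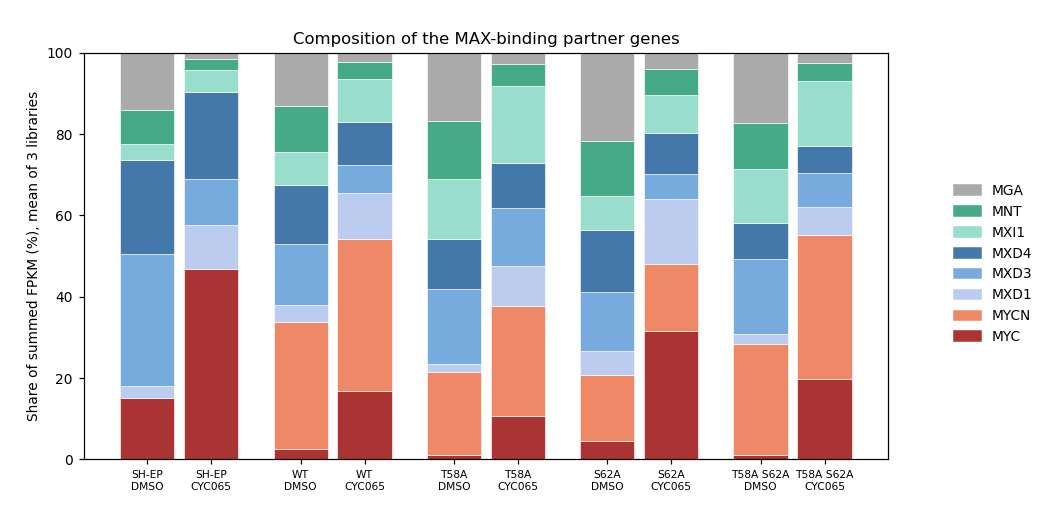
Stacked shares (%) of the summed FPKM of 8 MAX-binding partner genes, as means of the 3 libraries of each line and treatment. The MYC and MYCN segments at the bottom together rise from 15.2 to 46.9% in SH-EP and from 20.8 to 48.1% in S62A with CYC065, and the MGA segment at the top shrinks to 1.45 to 3.95%.

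Among the other network genes, MLXIP, the partner of MLX, was at 6.41 to 7.69 FPKM in SH-EP and 8.36 to 10.4 in the MYCN lines with DMSO, higher by 0.37, 0.37, 0.38 and 0.52 (SE 0.09, adjusted p 2.00e-05 to 0.00104). On the spike-in scale it was at -0.89, -0.58, -1.58 and -0.31, lower in all lines but T58A S62A (adjusted p = 0.155). With CYC065 MLXIP fell by 2.10 to 2.91 on the spike-in scale and by 0.89 to 1.33 as deposited. MYCL and MLXIPL were at most 0.28 and 0.144 FPKM and were not tested. Of the 2 genes listed as targets of MLX and MLXIP, TXNIP and ARRDC4, only TXNIP was tested, so it stands for no more than itself. TXNIP, a classical target of MLXIP and MLX that limits glucose uptake, was higher than in SH-EP by 1.04, 1.6, 1.03 and 0.97 on the deposited scale, and on the spike-in scale in T58A (0.66), whereas it was lower in S62A (-0.91). Its response to CYC065 differed between lines. It fell in SH-EP by 1.55 ± 0.23 on the spike-in scale, was at -0.27, -0.02 and -0.0047 in WT, T58A and S62A and rose by 0.63 in the double mutant, while as deposited it was at -0.30 in SH-EP (adjusted p = 0.0734) and rose by 1.18 to 1.70 in the MYCN lines. The differences from SH-EP were 1.28, 1.53, 1.54 and 2.17 (SE 0.33, adjusted p 7.39e-05 to 0.0253) and passed on both scales.

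The genes around the network were described by count, beside the medians of all genes given above. Of 59 MYC targets 57, 53, 49 and 56 were higher in WT, T58A, S62A and the double mutant than in SH-EP and 0, 1, 2 and 0 lower, with medians of 0.85, 0.81, 0.63 and 0.84. Of all tested genes 30.9 to 31.6% were higher and 22.6 to 24.1% lower in these comparisons. HK2, a hexokinase, rose by 1.82, 1.94, 1.47 and 1.98, and ODC1, which starts polyamine synthesis, by 1.56, 1.52, 1.67 and 1.71, although on the spike-in scale HK2 was lower in S62A (-0.46) and the list's medians were -0.42, -0.16, -1.33 and 0.00. Against WT, 25 targets were lower in S62A and 1 higher, beside 14 and 10.1% of all tested genes. That sum of 26 went to 17 without library 2 of WT and to 11 in a fit of those groups alone. It went to 59 with spike-in scaling, where the median was -0.89. T58A had 12 targets higher and 14 lower, beside 10.7 and 13% of all tested genes, and T58A S62A 12 and 10, beside 9.43 and 14.2%. With CYC065 54, 59, 55, 59 and 55 of the 59 fell on the spike-in scale in SH-EP, WT, T58A, S62A and the double mutant, beside 76.3, 93.7, 84.5, 90.2 and 76.4% of all tested genes. The medians of the list were -1.30, -1.81, -1.14, -1.43 and -1.08, within 0.24 of that of all genes, and as deposited -0.04, -0.12, 0.06, 0.05 and -0.0021. GRWD1, a ribosome assembly factor, fell by 2.97 to 4.12 and PPRC1, a coactivator of mitochondrial genes, by 3.02 to 3.40.

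Cofactors were counted in the same way, beside the 30.9 to 31.6% of all tested genes that were higher and the 22.6 to 24.1% that were lower than in SH-EP. Of 15 MYC coactivators 5, 9, 8 and 7 were higher than in SH-EP and 2, 1, 0 and 1 lower (medians 0.14, 0.19, 0.23 and 0.21), with KAT2A, a histone acetyltransferase, higher by 0.80 to 0.94 and RUVBL1, an ATPase, by 0.50 to 0.83. Of 16 corepressor genes used by MXD and MNT proteins 7, 5, 7 and 5 were higher and 2, 2, 4 and 4 lower (medians 0.14, 0.18, 0.15 and 0.04), shares near those of all genes, with RBBP4, a histone chaperone, at 0.39 to 0.82 and ARID4A, a subunit of SIN3 complexes, at -0.94 to -0.49. Of 11 MGA partners 9, 8, 7 and 7 were higher and 0, 1, 1 and 0 lower (medians 0.44, 0.36, 0.37 and 0.29), among them E2F6, the complex's DNA-binding E2F, at 0.36 to 0.73. Of 18 genes of MYC protein turnover 8, 10, 9 and 9 were higher and 1, 1, 2 and 0 lower (medians 0.10, 0.30, 0.27 and 0.11). With spike-in scaling the list medians in WT, T58A, S62A and the double mutant were -1.12, -0.76, -1.73 and -0.63 for coactivators, -1.13, -0.78, -1.81 and -0.80 for corepressors, -0.83, -0.60, -1.59 and -0.55 for MGA partners and -1.17, -0.66, -1.70 and -0.72 for turnover genes. On that scale KAT2A, RUVBL1, RBBP4 and E2F6 were lower in S62A, by 1.13 to 1.47, and none of these 4 genes was called higher in any line.

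With CYC065, in the order SH-EP, WT, T58A, S62A and the double mutant, 13, 14, 13, 14 and 14 of the 15 coactivators fell on the spike-in scale (medians -1.06, -1.56, -1.17, -1.54 and -1.12), as did 15, 16, 15, 16 and 14 of the 16 corepressors (-1.90, -1.93, -1.37, -1.77 and -1.28) and 16, 17, 17, 17 and 15 of the 18 turnover genes (-1.53, -1.77, -1.38, -1.75 and -1.31). All 11 MGA partners fell in all 5 lines (medians -1.29, -1.85, -1.23, -1.66 and -1.19), with E2F6 at -3.01 to -1.86. In the same order 76.3, 93.7, 84.5, 90.2 and 76.4% of all tested genes were lower. The counts were nearest to that background in WT and above it in SH-EP. In SH-EP the list median minus that of all genes was -0.83 for corepressors, -0.46 for turnover genes, -0.21 for MGA partners and 0.01 for coactivators. For corepressors it was -0.79 as deposited. As deposited the medians were 0.20, 0.12, 0.02, -0.07 and -0.04 for coactivators, -0.64, -0.25, -0.18, -0.34 and -0.21 for corepressors, -0.27, -0.09, -0.18, -0.35 and -0.23 for turnover genes and -0.05, -0.17, -0.05, -0.19 and -0.11 for MGA partners. The coactivator KAT5, an acetyltransferase, was at -4.8 to -3.18 and SIN3A, the scaffold that MXD proteins bind, at -4.02 to -3.29, both called lower in all 5 lines and also below 0 as deposited (-3.52 to -2.0 and -2.74 to -2.22). AXIN1, a scaffold in the phosphorylation of MYC proteins, had changes of -5.49 to -4.69, and AURKA, a kinase that binds and protects MYCN protein, had changes of -4.67 to -3.38. FBXW7, the ubiquitin ligase subunit that recognises the phosphorylated T58 region, was not named by the rule for these lists and was looked up after its values were seen. It rose by 0.60 in T58A (adjusted p = 0.0183) and 1.17 in the double mutant (adjusted p = 5.69e-05) on the spike-in scale and was at 0.19, -0.25 and 0.31 in SH-EP, WT and S62A, where it did not pass. As deposited, FBXW7 rose by 1.42 to 2.24 in all 5 lines. The spike-in scaled response of T58A S62A exceeded that of WT by 1.42 ± 0.33 (limma adjusted p = 0.0303). In that comparison 16.1% of all tested genes were called, 16% on the higher side, and the median difference was 0.61. Since FBXW7 was picked by its values, its p-values are a description and not a test.

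The tested genes whose deposited pattern over the 10 group means was most like that of MYCN, by Pearson's r, were RRP9 (0.989), CXorf56 (0.985), NKX2-5 (0.983), ATP6V1E2 (0.980) and H19 (0.980), the first also among the MYC targets above. H19, an imprinted noncoding RNA, had means of 5.65 FPKM in SH-EP and 289 to 1108 FPKM in the MYCN lines with DMSO, and NKX2-5, a homeobox factor, 0.0606 and 2.44 to 4.88. For MYC they were DCTN4 (0.989), MFSD1 (0.973), CHMP2A (0.971), TMEM30A (0.970) and PELO (0.968). TMEM30A, a subunit of lipid flippases, had a mean of 84.5 FPKM in SH-EP and 49.0 to 59.6 in the MYCN lines with DMSO, and of 170 and 85 to 119 with CYC065. These are descriptions over 10 points that share the same libraries and the same contrast between SH-EP and its derivatives.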

How the data were processed

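RNA was measured by poly(A) RNA-seq in 30 libraries of 5 lines, with DMSO or CYC065. Per the labels and the methods, the authors aligned reads to hg19 with HISAT2 (HISAT in the labels) and computed FPKM with Cufflinks for genes and 92 ERCC spike-ins, and the annotation is not given in the sources used here. The deposited FPKM values are relative to each library's own total, were not scaled to the spike-ins and carry no counts, so absolute depth is unknown and only relative depth could be read. A listed 0 can be a failed estimate, so MYCN in SH-EP was given no fold.

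The 11575 of 26228 genes that averaged 1 FPKM or more were tested as log2(FPKM + 0.1) with limma 3.58.1 (R 4.3.3, mean-dependent prior variance) in 1 fit of the 10 groups, with Benjamini-Hochberg adjusted p under 0.05 as the threshold. Adding 0.1 understates changes of low genes. Lines were compared on deposited FPKM. CYC065 and the differences between lines in its effect were tested on FPKM multiplied by a factor for each library. The factor made the median log2 level of the 55 spike-ins that averaged 1 FPKM or more equal in all libraries. Each scale served as the alternative of the other. Fold values in words are ratios of group means without the added 0.1. The fit was tested on simulated data. Libraries are numbered in the order of the table's columns, and no 2 of the 30 hold identical values.

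The members and the gene lists (MYC targets, coactivators, turnover genes, corepressors, MGA partners, other network genes, MLX and MondoA targets, marker lists) were chosen with earlier results of these data known. Within a list, named genes are those with the largest mean change among genes called the same way in every line. Genes with a pattern like MYCN or MYC were the 5 with the highest Pearson's r over group means. The samples fell into groups by the labels' line and treatment. Alternatives were pseudocounts of 1 and 0.01, no filter and a mean of at least 5 FPKM, the other scaling, centring of libraries on their median, spike-ins of at least 50 FPKM, fits of the compared groups alone, leaving out each library and, added later, a block on the columns' numbers.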

Additional observations from a re-analysis of the deposited data

Results flagged for a closer look

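MYC and MXD1 responded to CYC065 to a different extent in some lines, as tested by the interaction terms of the limma fit on spike-in scaled FPKM. For MYC the log2 rise exceeded that of SH-EP by 1.40 in T58A and by 2.58 in T58A S62A, and the T58A S62A rise exceeded that of WT by 2.05. The medians of all tested genes in these comparisons were -0.0054, 0.084 and 0.61, with 2.66, 5.46 and 16.1% of genes called. Leaving out any 1 library lost none of these 3 calls. The T58A call was lost with a pseudocount of 1 and in a fit of the compared groups alone. The call of T58A S62A against WT was lost with the spike-ins of at least 50 FPKM and in a fit of the compared groups alone. For MXD1 the response of WT was lower than that of SH-EP by 0.90, at -0.90 on the log2 scale (adjusted p = 0.043). In that comparison the median of all tested genes was -0.51 and 16% were called, 14.1% on the lower side. A lower value than that of MXD1 was found for 11.9% of tested genes, so MXD1 does not stand out from them. The MXD1 call was lost without any 1 of 8 libraries, namely DMSO library 2 and CYC065 libraries 1 and 3 of WT, DMSO libraries 1, 2 and 3 of SH-EP and CYC065 libraries 1 and 2 of SH-EP, with values of -0.97 to -0.77. It was also lost without a filter on low genes (adjusted p = 0.0582) and with the spike-ins of at least 50 FPKM (adjusted p = 0.147).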

How the results depend on the processing

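The columns of the table end in a number that no source matches to the numbers of the labels. Deviations from group means correlated at -0.126 to 0.161 (median 0.000259) over the 135 pairs of libraries of different groups with the same column number, and 13 of 30 libraries were nearest to their own number, so the numbers were not taken to pair libraries. A fit with that number as a replicate block, chosen after seeing the data, called 2 members for the response of WT and 1 for that of S62A against SH-EP, and 2 for T58A and 2 for the double mutant against the response of WT, where it called 1221 genes in all for T58A against 5 without the block. The remaining counts of members moved by less than 1.5 times. Changes of scale moved results the most. Of 114 changes of single genes, 63 kept their direction and their side of the threshold with the other scaling, 113 with a pseudocount of 0.01, 111 with a pseudocount of 1, 111 without a filter and 105 in fits of the compared groups alone. The cause of the changes below was not tested unless named. FPKM without counts leaves the counting error unknown, also for values under 1 FPKM such as those of MYC in T58A with DMSO and of MGA in SH-EP with CYC065.

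With the other scaling, in lines against SH-EP, MAX stood at -0.84 in WT, -0.32 in T58A, -1.62 in the S62A line and -0.25 in the double mutant, MXD1 at -0.45 in WT, -0.84 in the S62A line and -0.65 in the double mutant, MNT at -0.49 in WT and -1.15 in S62A, MGA at -1.03 in WT, -0.36 in T58A and -1.21 in S62A, and MXI1 at -0.70 in S62A. In mutants against WT, MXD4 stood at 0.069 in T58A, and in S62A MYC at -0.13, MXD1 at -0.39 and MGA at -0.17. For CYC065 the deposited scale gave MYCN 0.34 in WT, 0.39 in T58A, 0.21 in the S62A line and 0.48 in the double mutant, MXI1 0.69 in SH-EP, 0.43 in WT, 0.33 in T58A, 0.32 in the S62A line and 0.36 in the double mutant, MXD4 0.056 in SH-EP and MXD1 1.51 in WT. Centring on the median gave MYCN 0.51, 0.57, 0.39 and 0.63 in the same 4 lines, MXI1 0.88, 0.64, 0.52, 0.54 and 0.52 in the 5 lines, MXD4 0.20 in SH-EP and 0.049 in T58A, and MXD1 1.72 in WT. With the spike-ins of at least 50 FPKM MXD1 in S62A was at -0.17.

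At a mean of at least 5 FPKM, where 5 or 6 members remained to be tested, 4, 3, 5 and 3 members passed in WT, T58A, S62A and the double mutant against SH-EP, 2 in T58A and 2 in the double mutant against WT, 5, 6 and 6 with CYC065 in SH-EP, T58A and T58A S62A, 0 for the response of WT against SH-EP and 2 for that of T58A S62A against WT. With the other scaling 2 passed in T58A and 7 in S62A against WT, and 2 in each of the 4 responses against SH-EP. Centring gave 2, 2, 3 and 2 for these responses. Without a filter, and with the spike-ins of at least 50 FPKM, 0 passed for the response of WT, and with the latter 0 for T58A S62A against WT. A pseudocount of 1 gave 0 for T58A and 1 for S62A, and the fits of the compared groups alone gave 0 for T58A, 1 for S62A, 0 for T58A S62A against WT and 3 for T58A S62A against WT in DMSO.

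Leaving out 1 library gave 0 to 3 members for the response of WT against SH-EP, 0 to 4 for that of T58A against WT and 1 to 3 for that of T58A S62A against WT. It also turned values that had not passed, with ranges of -0.31 to 0.0010 for MXD1 and -0.040 to 0.026 for MLX in T58A against SH-EP, -0.11 to 0.29 for MYCN in the double mutant against WT, -0.022 to 0.24 for MXD1 in S62A with CYC065 and -0.40 to 0.013 for the MXD1 response of T58A S62A against SH-EP.

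The log2 ratio of summed MYC and MYCN to the summed repressors, -2.49, -0.97, -1.88, -1.93 and -1.35 with DMSO and -0.18, 0.24, -0.73, -0.11 and 0.30 with CYC065 in SH-EP, WT, T58A, S62A and the double mutant, moved without MGA to -2.23, -0.66, -1.54 and -1.47 in the first 4 DMSO groups, to 0.0046 in S62A and to 0.39 in the double mutant with CYC065. Taken as a difference of mean log2 values, with 0.1 FPKM added, it was -2.26, -0.15, -1.11, -0.50 and -0.81 with DMSO and -0.88, 1.88, 0.94, 1.52 and 2.01 with CYC065. In SH-EP MYCN is listed at 0, so its term there is set by the added 0.1 FPKM. The SH-EP values of -2.26 and -0.88, and their distance from the MYCN lines, depend on that choice.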
